A study of Mus musculus with 21 samples.

Results

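The genes described here are the interferon regulatory factor (IRF) family, a set of transcription factors that share a DNA-binding domain and bind the GAAA-rich elements of interferon-responsive genes. They were taken by gene symbol, Irf1 to Irf5 and Irf7 to Irf9, which are 8 of the 37734 genes in the deposited tables. All 8 reached a normalized read count of 10 in 3 samples or more and were among the 14970 genes tested. RNAseq had been performed on conventional dendritic cells (cDCs) FACS-sorted from C57BL/6 mice aged 6 to 8 weeks, untreated as far as the labels state, in pools of 10 to 15 mice. The 6 groups were immature splenic cDC1 (5 libraries), immature splenic cDC2 (3), immature thymic cDC1 (4), immature thymic cDC2 (3), mature thymic cDC1 (3) and mature thymic cDC2 (3). CD11c+ cells had been enriched with magnetic beads in all groups. Within them, cDC1 were gated as CD24+ CD11b-, cDC2 as CD24- CD11b+, mature cells as CCR7+ Esam+ and immature cells as CCR7- Esam-. Maturation here is thus the state defined by that gate in thymic cells, and no mature splenic group was analysed here.

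In cDCs, IRF8 is required for the cDC1 lineage and IRF4 acts in the cDC2 lineage and in the migration of mature cDCs. IRF3, IRF5 and IRF7 lie downstream of nucleic acid sensors and Toll-like receptors and, once phosphorylated, induce interferon and cytokine genes. IRF9 joins STAT2 in the ISGF3 complex that answers type I and type III interferon, and IRF1, itself induced by interferon-gamma and NF-kB, activates genes of MHC class I presentation, while IRF2 binds the same element and often opposes it. The values here are RNA levels and carry no measure of phosphorylation or of nuclear location.

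The libraries held between 14266867 and 40119669 reads on genes. Splenic cDC1 replicates 4 and 5, which carry the same pool and lane labels, had gene counts that differed far less than those of the other splenic cDC1 pairs (chi-square per degree of freedom 2.525, against 26.85 to 190.4) and were averaged into 1 sample, named replicate 4 here, which leaves 20 samples and n = 4 for that group. Immature thymic cDC1 replicates 3 and 4 also shared pool and lane labels but differed more (100.5) and were kept apart. Among the markers, Ccr7 and Xcr1 followed the gates, and Itgam, the gene of CD11b, did so in immature cells. Its means were 1581 and 417.4 in splenic and immature thymic cDC2 and 38.91 and 18.82 in the corresponding cDC1. In mature cells they were 20.4 in cDC2 and 0.0 in cDC1, so mature cDC2 had less Itgam RNA than splenic cDC1. Mean normalized read counts of Ccr7 were 110226.8 in mature cDC1 and 99928.4 in mature cDC2 and at most 3782 in the 4 immature groups, and those of Xcr1, a chemokine receptor of cDC1, were 12566.5 and 19098.0 in splenic and thymic immature cDC1 and 46.91 and 234.7 in the corresponding cDC2. Markers of other cells were present, at levels that moved with the groups. The summed value of 8 T cell and thymocyte markers ranged from 29.36 to 83.83 in splenic, 192.4 to 314.6 in immature thymic and 829.1 to 2579 in mature thymic samples, with Rag1 and Themis among those at 0 in a splenic group. The sum of 8 plasmacytoid DC (pDC) markers ranged from 2247 to 4147 in the immature cDC1 of both tissues, 4582 to 5542 in splenic cDC2, 7992 to 9048 in immature thymic cDC2, 3057 to 3123 in mature cDC1 and 4179 to 6198 in mature cDC2, and Siglech, a defining pDC receptor, had mean values of 888.5 in immature thymic cDC2 and at most 414 elsewhere. The sum of 8 macrophage markers lay between 4060 and 8818 in the cDC1 groups and between 6291 and 29003.3 in the cDC2 groups. That of 6 B cell markers was 566.1 to 984.1 in splenic and 106.4 to 401.5 in thymic samples. Of 6 monocyte and neutrophil markers the sum did not exceed 343.3 in any sample, and that of 6 thymic epithelial markers was 57.2 to 155.6 in splenic and 597.2 to 4878 in thymic samples, where Aire reached a mean of 3408 in mature cDC2. The part of these other transcripts in the results was not tested. Replicates are pools of mice, and some libraries, also within a group, carry the same pool label, so p-values measure the spread between these libraries. All mature libraries were sequenced in lane 8, and the immature groups were split over lanes 5 and 8.

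The 8 genes lie on 6 chromosomes of the mouse build mm10, as annotated in GENCODE M21. Irf1 (ENSMUSG00000018899) is at chr11:53770014-53778374 (+), Irf2 (ENSMUSG00000031627) at chr8:46739732-46847458 (+), Irf3 (ENSMUSG00000003184) at chr7:44997648-45002848 (+) and Irf4 (ENSMUSG00000021356) at chr13:30749226-30766976 (+). Irf5 (ENSMUSG00000029771) is at chr6:29526625-29541871 (+), Irf7 (ENSMUSG00000025498) at chr7:141262706-141266481 (-), Irf8 (ENSMUSG00000041515) at chr8:120736358-120756694 (+) and Irf9 (ENSMUSG00000002325) at chr14:55603571-55610030 (+). All are protein-coding, and each value sums over the exons and isoforms of its gene.

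Since the 4 genes whose levels changed most, Irf1, Irf4, Irf7 and Irf8, are themselves targets of signalling, their start regions were searched for elements bound by interferon- and NF-kB-activated factors. RefSeq windows of 250 bases before to 50 after a start (GRCm38.p6), 11 for the 8 genes, were searched on both strands for 4 motifs. These were an interferon-stimulated response element (ISRE) core, GAAANNGAAA, a gamma-activated sequence (GAS) of STAT dimers, TTCNNNGAA, an ETS-IRF composite element, GGAANNGAAA, and the kappaB consensus. The ISRE core was held by 3.44% of all 32851 windows, the GAS by 8.3%, the composite element by 2.72% and the kappaB consensus by 4.51%. Among the family, the GAS was found in 3 of the 11 windows (Irf1, Irf2 and Irf8), the kappaB consensus in 2 (Irf1 and Irf2), and the ISRE core and composite element in 1 (Irf2, where the ISRE core and the composite element overlap). Sequences upstream of the annotated gene follow for the 4 changing genes, 5′ to 3′ on the strand of the gene, with motif matches in capitals. For Irf1 (chr11:53769764-53770013) these are a GAS and, next to the start, a kappaB match. For Irf8 (chr8:120736108-120736357) they are a pair of GAS matches, and for Irf4 (chr13:30748983-30749225) and Irf7 (chr7:141266482-141266674, minus strand) there is none.
Irf1: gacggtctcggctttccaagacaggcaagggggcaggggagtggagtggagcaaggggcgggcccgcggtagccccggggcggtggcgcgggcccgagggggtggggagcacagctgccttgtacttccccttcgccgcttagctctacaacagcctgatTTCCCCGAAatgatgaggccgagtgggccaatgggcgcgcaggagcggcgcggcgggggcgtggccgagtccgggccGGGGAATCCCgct
Irf8: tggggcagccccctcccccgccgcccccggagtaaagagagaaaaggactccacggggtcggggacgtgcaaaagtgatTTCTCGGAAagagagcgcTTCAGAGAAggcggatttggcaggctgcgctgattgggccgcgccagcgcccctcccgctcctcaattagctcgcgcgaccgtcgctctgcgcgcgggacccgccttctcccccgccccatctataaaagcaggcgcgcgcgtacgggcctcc
Irf4: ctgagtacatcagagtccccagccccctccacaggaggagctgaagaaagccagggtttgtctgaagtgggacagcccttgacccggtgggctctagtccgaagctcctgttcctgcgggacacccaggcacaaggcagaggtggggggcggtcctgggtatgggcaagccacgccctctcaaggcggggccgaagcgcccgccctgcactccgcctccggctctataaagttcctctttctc
Irf7: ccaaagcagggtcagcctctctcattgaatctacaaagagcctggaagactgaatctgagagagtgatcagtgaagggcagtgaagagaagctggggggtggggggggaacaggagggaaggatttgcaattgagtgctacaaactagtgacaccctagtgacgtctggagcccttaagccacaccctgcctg
A match is a match of letters, and a window without one says nothing of the factor.

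A gene was called higher or lower where limma gave a p below 0.1 after Benjamini-Hochberg adjustment and the log2 fold change lay beyond 1, on log2(normalized read count + 1), with p adjusted over all 14970 genes. In mature against immature thymic cDC1, 2 of the 8 genes were called higher (Irf1, Irf4) and 1 lower (Irf7), where 21.3% of all genes were called higher and 24.5% lower. Mature cDC2 had 2 higher (Irf1, Irf8) and 1 lower (Irf7), against 18.6% and 17% of all genes. With every sample scaled to the same total, the split over all genes in this cDC2 comparison was 2196 higher and 3442 lower in place of 2781 and 2548, and the family's calls had the same counts. Between tissues, thymic immature cDC1 had 1 higher (Irf7) and 1 lower (Irf4), against 4.26% and 4.52%, and thymic immature cDC2 had 1 higher (Irf7) and 0 lower, against 8.3% and 5.87%. For cDC2 against cDC1, Irf4 was called higher and Irf8 lower in the spleen (all genes, 9.93% and 6.7%), in immature thymic cells (11% and 5.42%) and in mature thymic cells (14.6% and 4.36%), where Irf1 was called lower as well. The maturation and tissue comparisons share the immature thymic samples, so they are not independent of each other. Irf2, Irf3, Irf5 and Irf9 were called in none of the 7 comparisons. The share of all genes called in each comparison is also the one to set beside the counts of gene lists below.

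**Figure D1:**
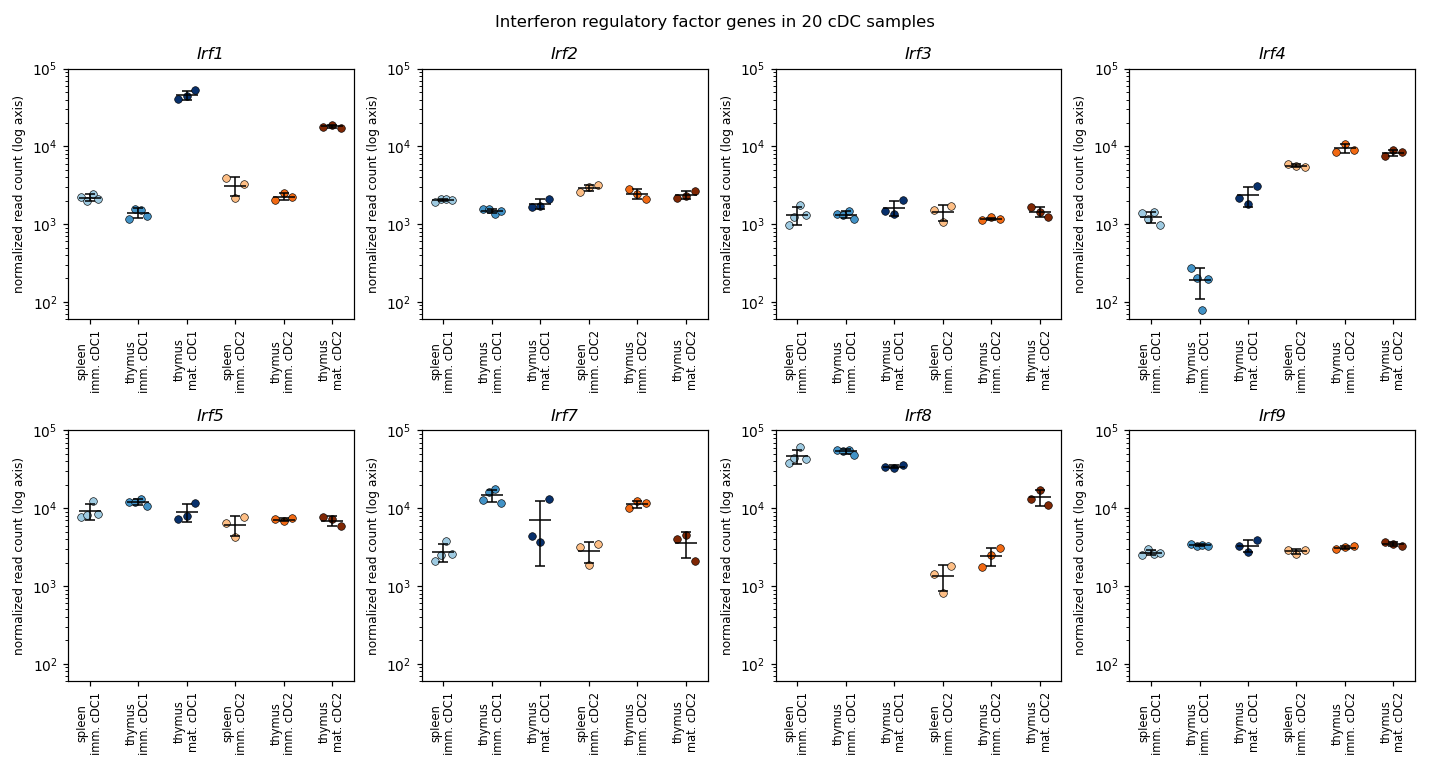
Normalized read counts (log axis) of the 8 genes in each of the 20 samples (points), by group, with the group mean and SD as a bar (n = 3 or 4 samples). Irf1, Irf4, Irf7 and Irf8 shift between groups, whereas Irf2, Irf3, Irf5 and Irf9 have highest and lowest group means within a ratio of 1.971.

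Irf1 showed the largest maturation-associated rise of the family in cDC1. Its normalized read counts were 1164, 1578, 1537 and 1287 in immature thymic cDC1 and 40435.0, 44180.0 and 52847.7 in mature thymic cDC1. The groups were far apart, and the log2 fold change was 5.04 ± 0.17 (SE, adjusted p = 2.33e-15), a ratio of means of 32.9. The cDC2 counterparts had 2047, 2488 and 2243 when immature and 17803.5, 18896.0 and 17309.5 when mature. There the rise was also without overlap but smaller, at a log2 fold change of 3.00 ± 0.18 (adjusted p = 4.88e-11). Tested directly, the maturation effect in cDC2 was lower than in cDC1 by a log2 difference of -2.05 ± 0.24 (adjusted p = 1.11e-05). This turned the order of the subsets around. Immature cDC2 had more Irf1 RNA than immature cDC1 in the spleen (log2 0.47, adjusted p = 0.0432, with overlap) and in the thymus (log2 0.71, adjusted p = 0.00341), both under the fold threshold, and mature cDC2 had less than mature cDC1 (log2 -1.34 ± 0.18, adjusted p = 1.48e-05). Splenic cDC1 had 2244, 1975, 2474 and 2098, all above the immature thymic cDC1 samples (log2 -0.67 for thymic against splenic, adjusted p = 0.00519). Splenic cDC2 had 3877, 2198 and 3308 and overlapped immature thymic cDC2. Within lane 8 the maturation differences were 4.96 in cDC1 and 2.93 in cDC2 on the log2 scale, from 3 against 3 and 3 against 2 samples.

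Irf2, whose product binds the elements that IRF1 binds, did not follow it. It had 1554, 1558, 1359 and 1484 in immature thymic cDC1 and 1641, 1697 and 2112 in mature ones, a log2 fold change of 0.28 ± 0.13 (adjusted p = 0.0725). In cDC2 the immature thymic values, 2815, 2465 and 2086, overlapped the mature ones, 2140, 2318 and 2666. Irf2 was instead somewhat higher in cDC2 than in cDC1 throughout, with log2 differences of 0.52 in the spleen (adjusted p = 0.00522), 0.71 in immature thymic cells (adjusted p = 0.000298) and 0.39 in mature ones (adjusted p = 0.048), in each case under the fold threshold but without overlap of the samples. Splenic values were 1933, 2118, 2102 and 2028 in cDC1 and 2615, 3043 and 3140 in cDC2. Per kilobase of exon, the ratio of Irf1 to Irf2 was 1.75 ± 0.31 (SD, n = 4) in immature and 46.95 ± 1.34 (n = 3) in mature thymic cDC1, and 1.74 ± 0.34 and 14.2 ± 1.9 (n = 3 each) in cDC2.

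Irf8 and Irf4, the lineage factors, had opposite subset patterns that narrowed in mature cells. Irf8 was 38101.6, 43814.9, 60982.2 and 43435.8 in splenic cDC1 against 1439, 824.1 and 1796 in splenic cDC2 (log2 -5.16 ± 0.23, adjusted p = 1.47e-12). The thymic immature values were 56864.1, 54385.1, 56852.0 and 48730.3 in cDC1 against 1781, 2534 and 3086 in cDC2 (log2 -4.49 ± 0.23, adjusted p = 1.51e-11). In mature cells the gap was 33498.3, 33313.9 and 36006.0 in cDC1 against 13228.6, 17175.5 and 10957.5 in cDC2 (log2 -1.34 ± 0.25, adjusted p = 0.000553). No cDC2 sample reached any cDC1 sample in any of these comparisons. Irf8 rose with maturation in cDC2, by 2.49 ± 0.25 on the log2 scale (adjusted p = 7.48e-08), whereas in cDC1 it stood lower by a log2 difference of -0.66 ± 0.23 (adjusted p = 0.0205), under the fold threshold but without overlap. The difference between these effects was 3.15 ± 0.34 (adjusted p = 3.62e-06). Irf8 also stood higher in immature thymic than splenic cDC2 (log2 0.90 ± 0.25, adjusted p = 0.0133) with overlapping samples. That difference passed the fold threshold without immature thymic cDC2 replicate 1 (log2 1.12) or splenic cDC2 replicate 3 (log2 1.14). In cDC1 the tissues overlapped.

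Beside the rise of Irf8 in mature cDC2, genes of cDC1 went in both directions. Of the 10 genes listed as IRF8-dependent in cDC1, described further on, 6 fell and 2, Batf3 and Id2, rose in cDC2. The shares of all genes were 17% and 18.6%. Among those that fell, mature cDC2 had mean values of 18.92 for Xcr1 and 36.05 for Clec9a, a cDC1 receptor for dead cells, against 440.3 and 1208 in mature cDC1 and against 234.7 and 350.9 in immature thymic cDC2. Of the 7 pDC markers tested, 4 fell and 3 rose in mature cDC2, against 17% and 18.6% of all genes. Among those that fell, Siglech went from a mean of 888.5 to 38.16 (log2 -4.48, adjusted p = 6.35e-05). Tcf4 went from 5899 to 2062 (log2 -1.54, adjusted p = 1.32e-05). Among those that rose, Runx2 went from 866.7 to 2416 (log2 1.46, adjusted p = 4.64e-06). Pacsin1 went from 80.75 to 170.5 (log2 1.02, adjusted p = 0.075). The part of pDC transcripts in the rise of Irf8 was not tested. In bulk samples, fewer cells of a type and less RNA per cell cannot be told apart.

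Irf4 was higher in cDC2 than in cDC1 in each setting, with 6001, 5535 and 5439 against 1410, 1174, 1412 and 988.9 in the spleen (log2 2.20 ± 0.28, adjusted p = 4.92e-06). In immature thymic cells it was 8542, 10832.0 and 9003 in cDC2 against 272, 205.7, 78.02 and 199.1 in cDC1 (log2 5.77 ± 0.28, adjusted p = 7.49e-12), the widest subset gap of the family. Mature cells had 7470, 8894 and 8473 in cDC2 against 2137, 1821 and 3117 in cDC1 (log2 1.85 ± 0.30, adjusted p = 0.000148). The samples of the subsets did not overlap in any setting. The cDC1 values were thus lowest in immature thymic cells. They were lower than in the spleen by a log2 difference of -2.84 ± 0.26 (adjusted p = 1.53e-07) and rose with maturation by 3.73 ± 0.28 (adjusted p = 5.54e-10). In cDC2, maturation gave a log2 difference of -0.19 ± 0.30 (adjusted p = 0.65), and thymic against splenic cells gave 0.74 ± 0.30 (adjusted p = 0.0955). The effects differed between the subsets, by -3.92 ± 0.41 for maturation (adjusted p = 2.58e-06) and by 3.57 ± 0.40 for tissue (adjusted p = 9.37e-06). Irf1, Irf4 and Irf8 were the 3 members called for the difference in maturation effect, 1 higher in cDC2 and 2 lower, against 8.34% and 5.25% of all genes, and Irf4 was the member called for the difference in tissue effect (higher), against 3.27% of all genes called higher and 1.71% lower. Within lane 8, the Irf4 maturation difference in cDC1 was 3.95 and the Irf8 one in cDC2 was 2.28, and the Irf4 tissue difference in cDC1 was -2.24 in lane 5 and -3.00 in lane 8.

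**Figure D2:**
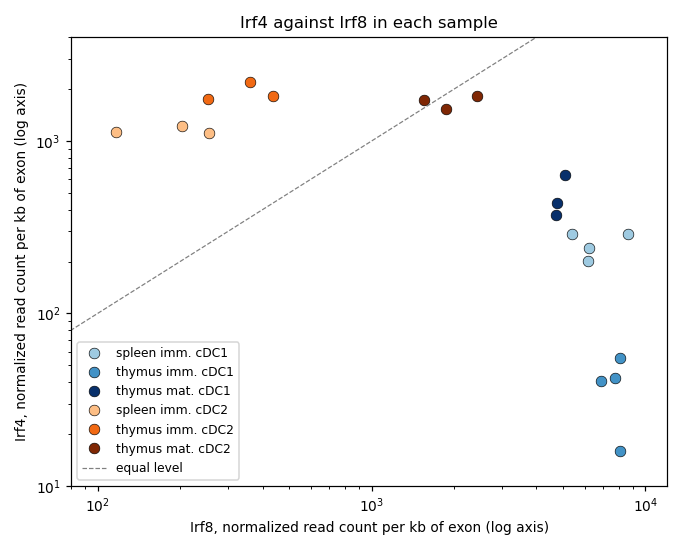
Irf4 against Irf8 in each of the 20 samples, both as normalized read count per kilobase of exon on log axes, with a dashed line at equal levels. Immature cDC2 samples lie above the line and all cDC1 samples below it, while the 3 mature cDC2 samples lie close to it, at Irf4 to Irf8 ratios of 0.745 to 1.11.

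Per kilobase of exon, Irf4 RNA exceeded Irf8 RNA in immature cDC2, with an Irf4 to Irf8 ratio of 6.68 ± 2.72 (SD, n = 3) in the spleen and 5.75 ± 1.40 (n = 3) in the thymus. The ratio was 0.890 ± 0.196 (n = 3) in mature cDC2, with samples on both sides of 1 and none in the range of the immature samples. Among cDC1, Irf8 exceeded Irf4 in every sample, 18.8- to 30.5-fold in the spleen, 145.3- to 506.4-fold in immature thymic and 8.03- to 12.7-fold in mature thymic cells. These cDC1 ranges did not overlap, so the immature thymic group stood farthest towards Irf8.

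The partners that IRF4 and IRF8 bind DNA with were mixed. Of 9 such genes, 5 rose and 1 fell with maturation in cDC1, against 21.3% and 24.5% of all genes. In cDC2, 3 rose and 2 fell, against 18.6% and 17%. The medians were 1.22 and 0.89 on the log2 scale against -0.04 and 0.04 over all genes tested. Spib, an ETS factor that recruits both IRFs to composite elements, rose in cDC1 (means 53.14 to 1261, log2 4.64, adjusted p = 1.8e-10) and cDC2 (1556 to 6817, log2 2.11, adjusted p = 4.34e-05). Batf3, the AP-1 partner required for cDC1, rose in cDC2 (647.8 to 4532, log2 2.78, adjusted p = 1.05e-07) and in cDC1 (log2 1.82, adjusted p = 6.34e-06). Ikzf1 (Ikaros) fell in both, by 1.82 (adjusted p = 2.04e-10) and 1.30 (adjusted p = 1.66e-07). Spib was also lower in thymic than splenic immature cDC1 (log2 -2.87, adjusted p = 8.87e-07), as Irf4 was, and it was the only one of the 9 called there. Of all genes, 4.26% were higher and 4.52% lower there. Thymic against splenic cDC2 had 1 higher and 2 lower (8.3% and 5.87% of all genes). Against cDC1, cDC2 had 2 higher and 0 lower in the spleen (9.93% and 6.7% of all genes). It had 2 and 1 in immature thymic (11% and 5.42%) and 1 and 1 in mature thymic cells (14.6% and 4.36%).

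Genes listed as IRF8-dependent in cDC1 were mostly lower in mature cells. That dependence was not tested here, and the listed gene Bcl6 had a higher mean in splenic cDC2 (8682) than in splenic cDC1 (6417). In cDC1, 7 of 10 fell and 2 rose (median log2 -4.39), against 24.5% and 21.3% of all genes. In cDC2, 6 fell and 2 rose (median -3.32), against 17% and 18.6%. Naaa, a lysosomal amidase, went from a mean of 46662.3 to 207.5 in cDC1 (log2 -7.88, adjusted p = 3.86e-16), and Tlr3, the double-stranded RNA sensor, from 4393 to 12.67 (log2 -8.45, adjusted p = 2.2e-09). The genes that rose were themselves regulators, Batf3 (given above) and Id2, which rose by 1.64 in cDC1 (adjusted p = 4.48e-07) and 3.12 in cDC2 (adjusted p = 2.62e-10) on the log2 scale. In cDC2 against cDC1, 8 of the 10 were lower and 0 higher in the spleen (6.7% and 9.93% of all genes). In immature thymic cells 9 were lower and 0 higher (5.42% and 11%). In mature thymic cells 4 were lower and 1, Wdfy4 (log2 1.23), was higher (4.36% and 14.6%). Thymic against splenic cells had 1 higher and 1 lower in cDC1 (4.26% and 4.52%) and 4 higher and 3 lower in cDC2 (8.3% and 5.87%). Of 11 genes of the IRF4 and KLF4 program of cDC2, 3 rose and 5 fell with maturation in cDC1 (21.3% and 24.5% of all genes). In cDC2, 2 rose and 5 fell (18.6% and 17% of all genes). The medians were -0.52 and -0.77 on the log2 scale. Pdcd1lg2, the PD-L2 ligand, rose in cDC1 from 22.63 to 3002 (log2 7.19, adjusted p = 1.34e-12) and in cDC2 from 798.5 to 2650 (log2 1.74, adjusted p = 0.000983), and the lectin gene Mgl2 fell in cDC2 from 17792.3 to 428.7 (log2 -5.62, adjusted p = 1.14e-05). Between tissues, 1 was higher and 4 lower in thymic cDC1 (4.26% and 4.52% of all genes). Thymic cDC2 had 2 higher and 3 lower (8.3% and 5.87%). Between subsets, 9 were higher in splenic cDC2 (9.93% of all genes), 7 in immature thymic cDC2 (11%) and 5 in mature cDC2 (14.6%). In each, 0 were lower (6.7%, 5.42% and 4.36% of all genes). Batf3 and Tlr3 each stand in 2 of the lists used here.

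**Figure D3:**
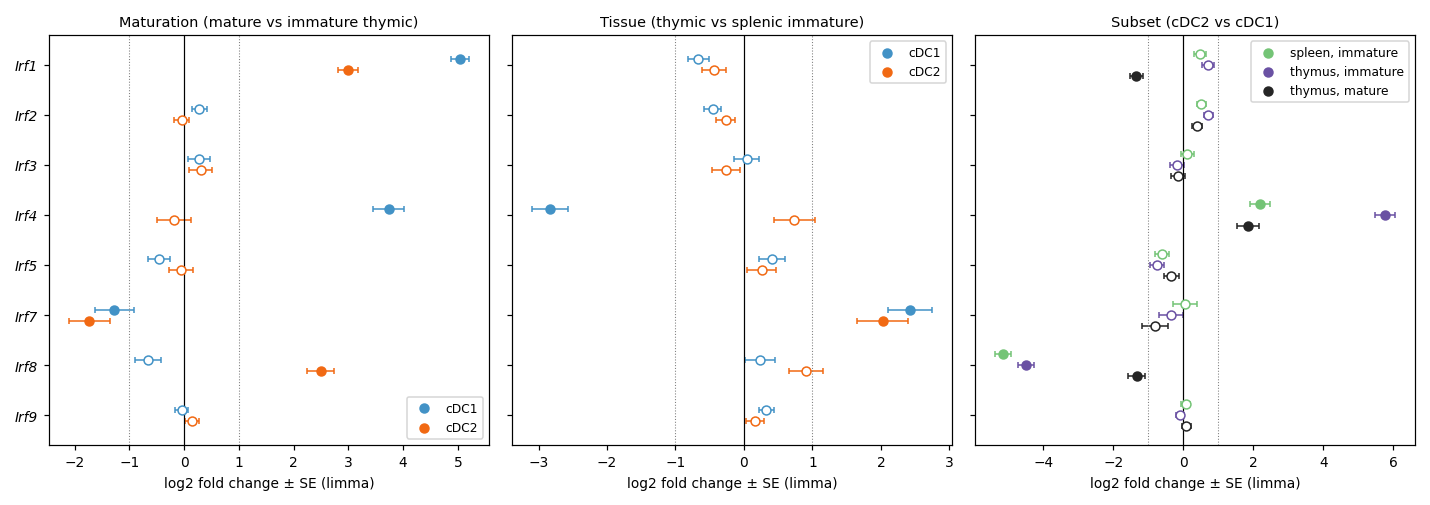
Log2 fold changes with SE (limma, 20 samples) of the 8 genes for maturation, tissue and subset. Filled symbols are called (adjusted p below 0.1 and beyond the dotted lines at 1), open symbols are not, and the filled symbols fall on Irf1, Irf4, Irf7 and Irf8.

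Irf7, which is both an inducer and a target of type I interferon signalling, was the member called higher in the thymus in both subsets. Immature thymic cDC1 had 12923.8, 16099.2, 17601.4 and 11736.4 against 2092, 2501, 3742 and 2612 in splenic cDC1 (log2 2.43 ± 0.32, adjusted p = 1.63e-05). Immature thymic cDC2 had 10071.6, 12262.3 and 11560.9 against 3200, 1887 and 3484 in splenic cDC2 (log2 2.03 ± 0.37, adjusted p = 0.000472). All thymic immature samples lay above all splenic ones, and the difference between the effects was -0.40 ± 0.49 (adjusted p = 0.874). The cDC1 tissue difference was 2.50 within lane 5 and 2.26 within lane 8, and the cDC2 one was 2.04 and 1.77. Of the 7 pDC markers tested, 6 were higher and 1 lower in thymic than splenic immature cDC2 (8.3% and 5.87% of all genes). In cDC1, 1 was higher and 1 lower (4.26% and 4.52%). The part of pDC transcripts in the tissue differences of Irf7 and Irf8 was not tested. With maturation, Irf7 fell in cDC2 to 4041, 4580 and 2096, below every immature thymic sample (log2 -1.73 ± 0.37, adjusted p = 0.000638). Mature cDC1 samples were uneven, at 4404, 3664 and 13081.4, the last of them within the immature range. The log2 fold change in cDC1 was -1.27 ± 0.35 (adjusted p = 0.00362), and without mature thymic cDC1 replicate 2 it was -0.92, under the fold threshold. Without replicate 3, the high sample, it was -1.84. Subset differences of Irf7 were not called, at 0.05, -0.36 and -0.81 on the log2 scale in splenic, immature and mature thymic cells. The last of these passed the thresholds without mature cDC1 replicate 1 (-1.03) or 2 (-1.17), or without mature cDC2 replicate 2 (-1.03).

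Irf3 varied little, and Irf5 was higher in immature cDC1 than in immature cDC2 by less than the fold threshold. Irf3 values lay between 969.7 and 2016 over all 20 samples, with group means from 1163 in immature thymic cDC2 to 1615 in mature thymic cDC1. Each group in that order overlapped the next, and no comparison had an adjusted p below 0.1. Irf5, a MyD88-dependent factor, had a higher level in cDC1, at 7749, 8260, 12470.5 and 8446 in splenic and 12193.9, 12177.3, 13279.1 and 10756.2 in immature thymic cells. The cDC2 values were 6368, 4302 and 7745 in the spleen and 7189, 6848 and 7394 in the thymus, without overlap with cDC1 in either tissue (log2 -0.60, adjusted p = 0.0319, and -0.76, adjusted p = 0.00828). In mature cells the subsets overlapped, with 7348, 7845 and 11603.0 in cDC1 and 7669, 7236 and 5850 in cDC2 (log2 -0.35 ± 0.21, adjusted p = 0.266). The mature cDC1 difference from immature was -0.47 ± 0.20 (adjusted p = 0.0532), again with overlap.

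Upstream of these factors, 22 sensors and adaptors were called in both directions with maturation. In cDC1 6 rose and 7 fell, where 21.3% of all genes rose and 24.5% fell, and in cDC2 4 rose and 5 fell, against 18.6% and 17% of all genes. Ikbke, the interferon-inducible kinase of IRF3 and IRF7, rose from a mean of 14.54 to 636.9 in cDC1 (log2 5.41, adjusted p = 2.98e-08) and from 59.96 to 377.8 in cDC2 (log2 2.65, adjusted p = 0.000705). Traf3, an adaptor of the same arm, rose by 2.48 (adjusted p = 3.61e-11) and 1.97 (adjusted p = 7.16e-09) on the log2 scale. Myd88, the adaptor upstream of IRF5 and IRF7, fell in cDC2 from 2096 to 727.4 (log2 -1.55, adjusted p = 4.09e-06), and Tlr3 fell in both subsets, as given above for cDC1 and by 4.21 in cDC2 (adjusted p = 0.000103). Thymic against splenic cells had 2 higher and 3 lower in cDC1 (4.26% and 4.52% of all genes). The RNA sensors Ddx58 (log2 2.00, adjusted p = 1.31e-07) and Ifih1 (log2 1.18, adjusted p = 5.76e-05) were the higher ones. In cDC2, 0 were higher and 2 lower (8.3% and 5.87%). Between subsets, 9 were higher and 1 lower in splenic cDC2 (9.93% and 6.7% of all genes). Immature thymic cDC2 had 7 and 2 (11% and 5.42%), and mature cDC2 had 6 and 0 (14.6% and 4.36%). Ddx58 (means 2071 against 100.3 in the spleen, log2 4.36, adjusted p = 1.47e-12) was higher in cDC2, and Tlr3 (114.2 against 6518, log2 -5.81, adjusted p = 2.2e-06) was higher in cDC1. Of 10 type I and III interferon ligand genes listed, 9 were in the tables and 0 passed the filter on low values, with no group mean above 6.814 (Ifnl2 in immature thymic cDC1). Their RNA was near the limit of detection at this depth.

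Irf9 had little variation, at 2503, 2961, 2594 and 2639 in splenic cDC1, 2917, 2562 and 2905 in splenic cDC2, 3445, 3319, 3419 and 3227 in immature thymic cDC1 and 2959, 3158 and 3259 in immature thymic cDC2. The mature values were 3285, 2719 and 3852 in cDC1 and 3646, 3470 and 3262 in cDC2. Thymic immature samples lay above splenic ones in both subsets, by 0.33 (adjusted p = 0.0558) and 0.16 (adjusted p = 0.417) on the log2 scale, and no comparison was called. Its exons share 123 bases with those of Rnf31 on the same strand, a gene whose mean rose from 1722 to 3249 between immature and mature thymic cDC1. How the counting assigned reads in that stretch is not given in the sources used here. Overlaps on the opposite strand measured 135 bases for Irf1 (Gm17334), 88 for Irf3 (Bcl2l12), 411 for Irf5 (Tnpo3) and 45 for Irf7 (Phrf1). The libraries were stranded, but the strand setting of the counting is not given in the sources used here. Tnpo3, like Irf5, was higher in immature cDC1 than in immature cDC2, with means of 3072 and 3244 in splenic and thymic cDC1, 2368 and 2313 in the corresponding cDC2, and 2315 and 2136 in mature cDC1 and cDC2. Group means of Bcl2l12 lay between 136.9 and 299.5 and those of Phrf1 between 1891 and 2382, and Gm17334 had a mean of at most 12.17 in any group. The part of reads from these genes in the members' values was not tested.

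Of 11 genes of interferon receptors and ISGF3 signalling, 2 rose and 2 fell with maturation in cDC1 (21.3% and 24.5% of all genes), and 1 rose and 2 fell in cDC2 (18.6% and 17% of all genes). The receptor chain of interferon-gamma, Ifngr1, fell from 5690 to 695.8 in cDC1 (log2 -3.05, adjusted p = 5.66e-12) and from 4821 to 923.1 in cDC2 (log2 -2.40, adjusted p = 1.42e-09). Ifnlr1, the receptor chain of type III interferon, fell as well (log2 -1.65 and -1.26, adjusted p = 1.55e-05 and 0.000819). Tyk2, a receptor kinase, rose in both (log2 1.29 and 2.05, adjusted p = 6.36e-06 and 5.53e-08). Thymic cDC1 had 3 higher and 1 lower than splenic cDC1 (4.26% and 4.52% of all genes). Among the higher were Stat2, the partner of IRF9, at 9387 against 3224 (log2 1.53, adjusted p = 3.45e-08) and Ifnlr1 at 1188 against 171.9 (log2 2.78, adjusted p = 5.83e-08). Thymic cDC2 had 1 higher, Ifnlr1 (log2 4.70, adjusted p = 2.49e-10), and 1 lower, Ifngr1 (log2 -1.24, adjusted p = 4.4e-05), against 8.3% and 5.87% of all genes. Between subsets 0, 1 and 0 of the 11 were higher in cDC2 and 1, 0 and 0 lower, in splenic, immature and mature thymic cells. Of all genes, 9.93%, 11% and 14.6% were higher and 6.7%, 5.42% and 4.36% lower.

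Among target genes, those of the ISRE class, the usual targets of ISGF3 and IRF7, were higher in the thymus. Of 26 such genes, 21 were higher and 1 lower in thymic than splenic immature cDC1 (4.26% and 4.52% of all genes). In cDC2, 18 were higher and 0 lower (8.3% and 5.87%). The median log2 fold changes were 2.18 and 1.44 against 0.00 and 0.02 over all genes. Oasl1 went from 117 to 1801 in cDC1 (log2 3.95, adjusted p = 2.16e-09) and Ifi44 from 119 to 1487 in cDC2 (log2 3.63, adjusted p = 2.95e-08), while Ifitm3 was lower in thymic cDC1 (log2 -1.94, adjusted p = 0.000243). With maturation, 9 rose and 4 fell in cDC1 (21.3% and 24.5% of all genes), and 1 rose and 14 fell in cDC2 (18.6% and 17%). The medians were 0.20 and -1.01. In cDC1 the rising genes included Rsad2 (810 to 4848, log2 2.58, adjusted p = 1.01e-09) and the falling ones Ifi44 (2276 to 488.6, log2 -2.31, adjusted p = 4.92e-07). In cDC2, Ifit3 fell from 3483 to 409.1 (log2 -3.09, adjusted p = 4.99e-09) and Mx1 rose from 5283 to 19838.3 (log2 1.91, adjusted p = 1.08e-08). For the difference of maturation effects between subsets, 11 of the 26 were lower in cDC2 and 0 higher, against 5.25% and 8.34% of all genes. In immature cells, more of the ISRE class was called higher in cDC2 than in cDC1. The spleen had 17 higher and 0 lower (9.93% and 6.7% of all genes), with a median log2 of 1.69 against 0.02 over all genes. The thymus had 14 higher and 0 lower (11% and 5.42%), with a median of 1.07 against 0.01. In mature cells 7 were higher and 1 lower (14.6% and 4.36%), and the median was 0.14, as it was over all genes.

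A list of known targets of IRF1 was mostly higher in mature cells. It holds genes of class I presentation and the guanylate-binding proteins (GBPs), and also others such as Socs1, Cd274 and Il15. Of 18, 13 rose and 1 fell in cDC1 (21.3% and 24.5% of all genes) and 16 rose and 1 fell in cDC2 (18.6% and 17%). The medians were 1.77 and 1.51. Gbp2 went from a mean of 78.59 to 11021.7 in cDC1 (log2 7.22, adjusted p = 2.33e-15) and from 888.5 to 19815.9 in cDC2 (log2 4.49, adjusted p = 2.72e-11). Gbp5 went from 3.039 to 603.2 and from 6.957 to 180.8. Gbp7 was the gene that fell in both (30.93 to 11.33, adjusted p = 0.0154, and 581.6 to 185.8, adjusted p = 0.0789). Between tissues, 1 was higher and 3 lower in thymic cDC1 (4.26% and 4.52% of all genes), and 1 was higher and 0 lower in thymic cDC2 (8.3% and 5.87%). Socs1 was the higher gene in both. The tissue medians were 0.35 and 0.32 against 0.00 and 0.02 over all genes. In cDC1 the median thus had the opposite sign to most calls and to the log2 difference of Irf1 (-0.67). Between subsets, cDC2 had 5 higher and 4 lower in the spleen (9.93% and 6.7% of all genes). It had 5 and 4 in immature thymic (11% and 5.42%) and 2 and 1 in mature thymic cells (14.6% and 4.36%). The maturation effect of 5 of the 18 was lower in cDC2 than in cDC1 and that of 1 was higher, against 5.25% and 8.34% of all genes. The median difference of the 18 had the other sign, at 0.18 against 0.11 over all genes.

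**Figure D4:**
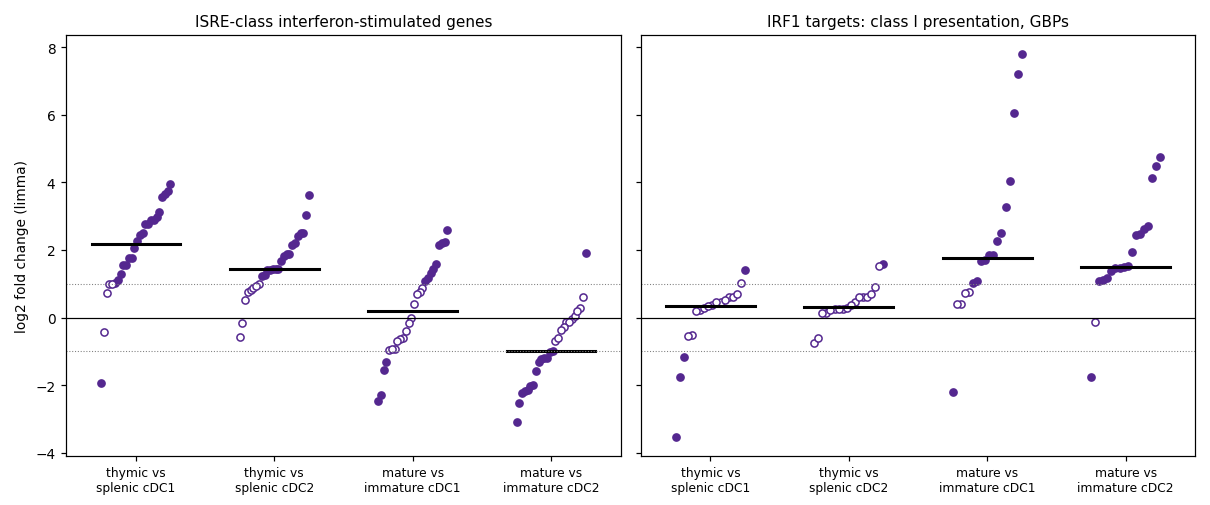
Log2 fold changes (limma) of each gene of the ISRE class (26 genes, left) and of the IRF1 target list (18 genes, right) in the tissue and maturation comparisons. The IRF1 list holds class I presentation genes, GBPs and others such as Socs1, Cd274 and Il15. Filled points are called, open points are not, and the bars are medians, which lie at 2.18 and 1.44 for tissue on the left and at 1.77 and 1.51 for maturation on the right.

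Of 11 regulators that restrain IRF activity, 2 rose and 2 fell with maturation in each subset, shares close to those of all genes (21.3% and 24.5% in cDC1, 18.6% and 17% in cDC2). Socs1, an inhibitor of JAK kinases that also stands in the IRF1 target list, rose in cDC1 (230.9 to 744.3, log2 1.67, adjusted p = 0.000927) and cDC2 (163.7 to 1126, log2 2.70, adjusted p = 1.76e-05). Irf2bpl, whose product is related to the IRF2-binding corepressors, fell from 276.7 to 20.89 in cDC1 (log2 -3.84, adjusted p = 3.18e-08) and from 249.5 to 62.7 in cDC2 (adjusted p = 0.000401). Thymic cells had 3 higher and 0 lower in cDC1 (4.26% and 4.52% of all genes) and 4 higher and 0 lower in cDC2 (8.3% and 5.87%). Usp18, an ISG15 protease that dampens type I interferon signalling and is itself induced by it, was among them in both (log2 2.96, adjusted p = 6.41e-10, and 2.45, adjusted p = 6.36e-08). Between subsets, 3, 1 and 2 were higher in cDC2 in splenic, immature and mature thymic cells and 0 were lower. Of all genes, 9.93%, 11% and 14.6% were higher and 6.7%, 5.42% and 4.36% lower.

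The makeup of the family differed between groups. Per kilobase of exon, Irf8 was 53.0% of the summed level of the 8 genes in splenic and 44.4% in immature thymic cDC1, with Irf5 the next at 25.5% and 24.1%. In splenic cDC2 the highest was Irf5, at 33.4%, followed by Irf4 at 18.2%. Immature thymic cDC2 had Irf7 at 31.3%, Irf5 at 25.8% and Irf4 at 20.2%. In both mature groups Irf1 ranked highest, at 49.8% in cDC1, where Irf8 had 21%, and at 35.2% in cDC2, where Irf5 had 18.5%, Irf8 15.2% and Irf4 13.1%. Irf2, Irf3 and Irf9 each had at most 8.20% in all groups. These shares use the union of annotated exons as length, which need not be the expressed isoform.

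**Figure D5:**
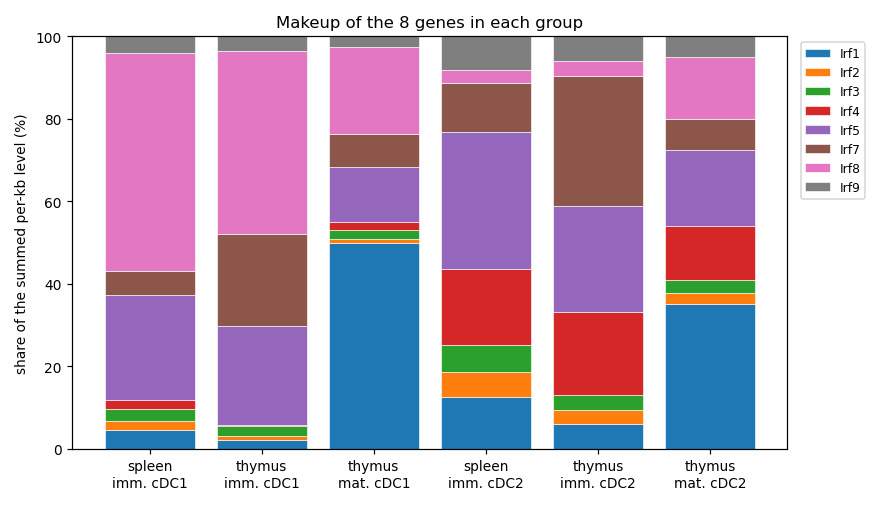
Share (%) of each gene in the summed per-kilobase level of the 8 genes, from group means (bars add up to 100). Irf8 takes the largest share in immature cDC1 (53.0% and 44.4%) and Irf1 in mature cDC1 and cDC2 (49.8% and 35.2%).

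Ranked by group mean, Irf1 went from immature thymic cDC1 (1392) over splenic cDC1 (2198), immature thymic cDC2 (2259) and splenic cDC2 (3127) to mature cDC2 (18003.0) and mature cDC1 (45820.9), and the neighbours in the middle of that order overlapped. For Irf4 the order was immature thymic cDC1 (188.7), splenic cDC1 (1246), mature cDC1 (2358), splenic cDC2 (5658), mature cDC2 (8279) and immature thymic cDC2 (9459), and only the last pair overlapped. The order of Irf7 ran from splenic cDC1 (2737) and splenic cDC2 (2857) over mature cDC2 (3572), mature cDC1 (7050) and immature thymic cDC2 (11298.2) to immature thymic cDC1 (14590.2), and each neighbour overlapped the next. For Irf8 it was splenic cDC2 (1353), immature thymic cDC2 (2467), mature cDC2 (13787.2), mature cDC1 (34272.7), splenic cDC1 (46583.6) and immature thymic cDC1 (54207.9), with overlap in the first and last pairs. The highest group mean exceeded the lowest 50.1-fold for Irf4, 40.1-fold for Irf8, 32.9-fold for Irf1 and 5.33-fold for Irf7, but only 1.97-fold for Irf2 and Irf5, 1.39-fold for Irf3 and 1.29-fold for Irf9.

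As a description, the pattern of each member was compared with those of 10224 genes with a mean value of at least 100, by Pearson correlation of log2 values over the 20 samples, which share pools, lanes and normalization. Those nearest to Irf1 were Arfrp1 (r = 0.991), Nub1 (0.990) and Agap1 (0.984), to Irf4 Tpp1 (0.950), Arap2 (0.945) and Spib (0.943), to Irf7 Tmem219 (0.935), and to Irf8 Cpq (0.968), Gusb (0.960) and Tulp3 (0.958). Irf2 was nearest to Il6st (0.949), Ptafr (0.933) and Zeb2 (0.919), Irf3 to Cnpy3 (0.905), Irf5 to Ap3d1 (0.957) and Irf9 to Uhrf1 (0.868). Within the family, Irf2 and Irf4 had r = 0.831, Irf5 and Irf8 0.752, Irf4 and Irf8 -0.726 and Irf2 and Irf8 -0.817 over the same samples.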

How the data were processed

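Each library was an mRNA library (TruSeq stranded) sequenced with paired reads. According to the methods and labels, the authors used Cutadapt for trimming, STAR 2.6 for alignment to mm10, HTSeq-count on Ensembl genes and DESeq2 1.24.0 for normalization. The Ensembl release and strand setting are not given in the sources used here. The deposited values are a signal, the read count divided by a size factor of the library, called normalized read count here. Dividing by the value of 1 read gave whole reads for 100.0% of values (relative tolerance 1e-06), between 14266867 and 40119669 reads a library, which sets the counting precision.

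From these values, log2(value + 1) was fitted with limma 3.58.1 in R 4.3.3 (lmFit, eBayes with trend), with 1 mean for each of 6 groups over 20 samples, for the 14970 genes that reached a value of 10 in 3 samples or more. Calls needed a log2 fold change beyond 1 in either direction and an adjusted p below 0.1. The fit was tested on simulated data. Alternatives used edgeR 4.0.16 and DESeq2 1.42.0 on the recovered reads, other pseudocounts, filters and thresholds, other sample sets and each sample left out in turn. For maturation in cDC1, edgeR with TMM factors called 3311 genes higher and 3421 lower, and limma 3183 and 3665. Exon lengths and overlaps came from GENCODE M21, which held 37693 of 37734 gene identifiers, and promoter windows from RefSeq (GRCm38.p6).

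The members and gene lists were chosen with earlier results of these data known, so no list is independent evidence of its direction. Besides the members, the text names up to 2 rises and 2 falls a list and comparison among called genes with a mean value of at least 100 in the highest group, marker genes, overlapping genes, and up to 3 genes most like each member. Some genes that this rule covers are not reported here. A few other list genes are given by their means after their values were seen.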

Additional observations from a re-analysis of the deposited data

Results flagged for a closer look

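In splenic cDC1, the highest Irf5 value, 12470.5 in replicate 3, stood apart from the other 3 samples (7749 to 8446). The gap was more of the group's range than Dixon's test allows, which chance does in about 1 of 20 groups. That test was run for all 8 members in each group of 4 samples, and it flagged no other value. Splenic cDC1 replicate 3 also had the highest Irf1 (2474), Irf3 (1751), Irf4 (1412), Irf7 (3742) and Irf8 (60982.2) values of its group, so that it was highest for 6 of the 8 members. Comparing its gene counts with those of the other splenic cDC1 libraries gave chi-square values of 108.1 to 190.4 for each degree of freedom, against 2.525 to 58.69 between the others.

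By the interaction test in limma, 4 effects differed between the subsets. The maturation effect of Irf1 in cDC2 minus that in cDC1 was -2.05 on the log2 scale, with all 6 mature samples above all immature ones in both subsets. For Irf4 the difference in maturation effect was -3.92, where 3 of 3 mature cDC1 samples lay above the immature ones and the cDC2 samples overlapped. The difference in tissue effect of Irf4 was 3.57, where the 4 thymic cDC1 samples lay below all splenic ones and the 3 thymic cDC2 samples above all splenic ones. For Irf8 the difference in maturation effect was 3.15, where the 3 mature cDC1 samples lay below and the 3 mature cDC2 samples above the immature ones.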

How the results depend on the processing

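The 20 called results (a member in a comparison) kept their direction and side of the thresholds in 663 of 664 alternative fits, the exception being Irf7 in mature cDC1 without mature replicate 2 (-0.924). Of 1728 fits of the 52 results not called, 5 passed the thresholds, and 31 changed sign. Many fits of both kinds left out a sample of a group outside the comparison. The log2 fold change cannot move in those, nor with another gene filter or with only the groups compared. Changed thresholds, given below, are not among these fits.

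With no fold-change threshold, the number of the 8 members called was 6 for maturation in cDC1 (64.1% of all genes), 5 for tissue in cDC1 (15.4%), 4 for tissue in cDC2 (26.5%), and 5 each for splenic (29.4%) and immature thymic (26%) cDC2 against cDC1. With a log2 threshold of 2, it was 0 for mature cDC2 against cDC1 (10.5%). Leaving out each sample gave 1 to 2 members for tissue in cDC2. With equal totals, the median of all genes shifted by -0.278 and -0.294 for maturation in cDC1 and cDC2 and by 0.121 for the difference in tissue effect, and the log2 values were -0.019 for Irf2 and -0.031 for Irf3 in cDC1 maturation and -0.008 for Irf3 and -0.160 for Irf9 in cDC2 maturation. In lane 8 alone, Irf2 had 0.061 in cDC2 maturation, Irf3 -0.195 for tissue in cDC1, Irf5 -0.122 for tissue in cDC2, and Irf3 -0.002 for the difference in maturation effect. With 1 sample per pool, Irf3 had -0.022 for tissue in cDC1 and Irf7 -0.022 in splenic cDC2 against cDC1, and with lane as a covariate Irf3 had -0.022 for tissue in cDC1.

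Leaving out samples, log2 values ranged for maturation from -0.165 to 0.086 (Irf9, cDC1), -0.156 to 0.061 (Irf2, cDC2) and -0.134 to 0.061 (Irf5, cDC2), for tissue in cDC1 from -0.094 to 0.19 (Irf3), for splenic subsets from -0.028 to 0.319 (Irf3) and -0.122 to 0.32 (Irf7), for mature subsets from -0.281 to 0.018 (Irf3) and -0.042 to 0.209 (Irf9), for the difference in maturation effect from -0.097 to 0.202 (Irf3) and -0.81 to 0.108 (Irf7), and for that in tissue effect from -0.004 to 0.406 (Irf1) and -0.389 to 0.035 (Irf5). The causes were not tested.

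With pool as a replicate block, 2 members were called in splenic and 2 in immature thymic cDC2 against cDC1, as without it. Deviations of samples of the same pool label correlated at -0.0781 to 0.461 in the spleen and -0.15 to 0.276 in the immature thymic groups. Those of different pool labels correlated at -0.492 to 0.244 and -0.224 to 0.258. Whether the label pairs the samples was not tested further. Mature groups share 1 pool only and gave no such fit. Over all genes, testing only genes that reached a value of 10 in all samples lowered the calls. For maturation in cDC1 there were 1888 higher and 2207 lower of 10135 genes tested, against 3183 and 3665 of 14970. The smallest counts behind a member, 50 to 322 reads, were those of Irf4 in immature thymic cDC1.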
